A study of Mus musculus with 27 samples.

Results

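The 10 genes described here encode the machinery that displays peptides of a cell's own proteins on MHC class I molecules. They are B2m, H2-K1, H2-D1, Tap1, Tap2, Tapbp, Psmb8, Psmb9, Psmb10 and Nlrc5. They were chosen by symbol, each symbol matched 1 gene identifier, and they are 10 of the 54446 genes in the deposited count tables. All 10 passed the low-count filter in each of the 8 comparisons between labelled groups. RNA was sequenced in bulk from cells sorted out of 12-week-old NOD mice, a strain that develops autoimmune diabetes. Animals called TG+ were Ins2-CCL21 NOD, in which an insulin promoter drives the lymphoid chemokine CCL21, and TG- animals were NOD/ShiLtJ. Of the 27 libraries, 8 were labelled as CD45 cells of islet infiltrates (4 from TG+ mice and 4 from TG-). From the islet tertiary lymphoid organs, 4 libraries were labelled gp38-high (2 TG+, 2 TG-) and 8 gp38-low (4 TG+, 4 TG-). The remaining 7 were labelled as fibroblastic reticular cells, or FRCs, of skin-draining lymph nodes (3 TG+, 4 TG-). CD45 is the common leukocyte antigen and gp38 is podoplanin, a surface protein of lymphoid stroma. The insulin promoter acts in beta cells, which the sorts did not aim at, and the transgene itself was not checked here. Nothing in the labels ties each library to its own animal, so every p-value below measures the spread between these libraries, which may be technical in part.

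Nearly every nucleated cell displays class I molecules, and CD8 T cells read the peptides they carry. The proteasome cuts proteins into peptides, the transporter made of TAP1 and TAP2 moves the peptides into the endoplasmic reticulum, and tapasin holds an empty class I molecule at the transporter until a peptide binds. Interferon gamma raises the genes of this route and replaces the catalytic subunits PSMB5, PSMB6 and PSMB7 by PSMB8, PSMB9 and PSMB10, which makes an immunoproteasome. NLRC5 is a transactivator that acts on class I promoters together with RFX, CREB or ATF and NF-Y proteins. In NOD mice CD8 T cells that see beta cell peptides on class I take part in killing beta cells.

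The marker genes often went against the sort labels, so levels are given by 4 library classes set by those markers. Libraries with Ptprc, the gene of CD45, above 100 CPM (a gene's count divided by the library's reads in genes, times 1000000) are called Ptprc-high. Of the others, those with the reticular cell chemokine gene Ccl21a above 1000 CPM are called Ccl21a-high, and those with the mesothelial gene Msln above 100 CPM are called Msln-high. The remaining 8 libraries are called the rest. The classes held 8, 7, 4 and 8 libraries in this order. The thresholds fell in wide gaps, since the values nearest to them were 169 CPM inside and 5.79 CPM outside for Ptprc, 2162 and 5.28 CPM for Ccl21a, and 573 and 2.52 CPM for Msln. Only 1 of the 8 libraries labelled CD45 was Ptprc-high, against 5 of the 7 labelled lymph node FRC. The 4 Msln-high libraries carried all 4 sort labels. The labels CD45, lymph node FRC, gp38-high and gp38-low also hold 8, 7, 4 and 8 libraries. All 7 Ccl21a-high libraries carried islet labels, yet their pancreatic acinar genes summed to at most 1.92 CPM. Every other library had at least 103 CPM of these genes. The labels may thus not name the cells of a library.

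The gene that sets a class was left out of its marker list below. The 4 other leukocyte genes summed to 2464 to 3589.9 CPM in Ptprc-high libraries and to at most 10.2 CPM in the other libraries. Ptprc-high libraries held T cell, B cell and macrophage and dendritic cell genes side by side, so they are mixtures of leukocytes. The 8 other lymphoid reticular genes summed to 1336 to 2109.7 CPM in Ccl21a-high libraries and to at most 175 CPM elsewhere. Genes of pericytes and smooth muscle (6 genes) also summed to 2301 to 3874 CPM in Ccl21a-high libraries, against at most 337 CPM elsewhere. The 5 other mesothelial genes summed to 3224 to 4718 CPM in Msln-high libraries and to at most 184 CPM elsewhere. In the rest, 9 genes of adventitial fibroblasts summed to 24522 to 35927 CPM. The same 9 genes summed to 9708 to 15461 CPM in Ccl21a-high libraries, 9371 to 18381 in Msln-high and 109 to 321 in Ptprc-high. Reads in genes numbered 8517844 to 25194443 per library. The non-coding RNA Gm26917 took 20.8% to 36.0% of them in Ptprc-high libraries, 9.78% to 22.2% in Ccl21a-high, 5.31% to 6.82% in Msln-high and 5.39% to 7.93% in the rest. This lowers the CPM of all other genes unevenly, by most in Ptprc-high libraries.

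Of the 10 genes, 7 lie in the MHC region of chromosome 17 (mm10), between 33915899, where Tapbp starts, and 35267499, where H2-D1 ends. B2m lies on chromosome 2 from 122147686 to 122153083, and Nlrc5 on chromosome 8 from 94434356 to 94527272. Psmb10 is on chromosome 8 too, from 105935735 to 105938444. NOD mice carry the H-2g7 haplotype, whose K allele is Kd, whereas the C57BL/6 mouse behind mm10 carries Kb. Both strains carry Db. Reads of H2-K1 can therefore mismatch the reference where reads of H2-D1 do not, and class I genes share long stretches, so reads that fit several of them are not counted. The levels of H2-K1, H2-D1 and other class I heavy chain genes are uncertain for this reason. All 27 libraries are NOD and share this loss. Exons of Tap1 and Psmb9 overlap on opposite strands, as do those of Tap2 and of Psmb8 with the antisense gene Gm20496, and the strand-specific counts keep such partners apart.

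Promoter letters are shown for the chains of the class I molecule itself and for the interval shared by Tap1 and Psmb9, because their levels are compared below. The sequences are the 250 bases before the start site from RefSeq (GRCm38.p6), which holds a window for 8 of the 10 genes, and Tap2 and Nlrc5 are only named. Capitals mark the motifs searched on both strands, which were an interferon-stimulated response element, an NF-kB site, TGACG (the core of the cyclic AMP response element, bound by CREB and ATF) and CCAAT (bound by NF-Y), which reads ATTGG on the other strand. Of the longer motifs, the capitals before the start of B2m that begin with GAAA are the response element, and those before H2-K1 and H2-D1 that begin with GGGG are the NF-kB site. No 2 of these motifs overlapped in the windows shown.
B2m, chr2:122147437-122147686, plus strand: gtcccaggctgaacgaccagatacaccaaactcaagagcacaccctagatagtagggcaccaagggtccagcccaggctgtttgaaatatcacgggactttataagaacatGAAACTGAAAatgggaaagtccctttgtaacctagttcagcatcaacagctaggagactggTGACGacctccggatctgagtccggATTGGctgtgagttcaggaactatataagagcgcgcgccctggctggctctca
H2-K1, chr17:34000348-34000597, minus strand: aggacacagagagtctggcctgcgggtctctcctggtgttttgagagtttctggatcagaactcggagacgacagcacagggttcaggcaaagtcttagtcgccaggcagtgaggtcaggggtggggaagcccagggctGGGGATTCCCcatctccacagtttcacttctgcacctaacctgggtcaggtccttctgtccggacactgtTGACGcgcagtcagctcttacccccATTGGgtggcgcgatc
H2-D1, chr17:35262844-35263093, plus strand: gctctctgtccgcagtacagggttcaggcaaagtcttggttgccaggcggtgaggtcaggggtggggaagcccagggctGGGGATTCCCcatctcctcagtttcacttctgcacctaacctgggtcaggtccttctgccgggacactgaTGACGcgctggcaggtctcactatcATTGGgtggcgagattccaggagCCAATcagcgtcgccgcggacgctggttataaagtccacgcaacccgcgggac
The interval between the starts of Psmb9 and Tap1, chr17:34187331-34187555, plus strand: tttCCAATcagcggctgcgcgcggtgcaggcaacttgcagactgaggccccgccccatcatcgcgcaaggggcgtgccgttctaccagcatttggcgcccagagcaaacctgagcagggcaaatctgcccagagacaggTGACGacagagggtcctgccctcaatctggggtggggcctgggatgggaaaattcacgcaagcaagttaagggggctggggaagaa

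In all 3 class I chain promoters, TGACG was followed after 20 bases by ATTGG, with 25 bases between their first letters. The TGACG began 78 bases before the start of B2m, 41 before that of H2-K1 and 101 before that of H2-D1. This spacing of TGACG and ATTGG, on either strand, occurred in 30 of 32851 promoter windows (0.0913%), which belong to 26 genes, among them the class I gene H2-M3. The exact NF-kB letters stood in the windows of H2-K1 and H2-D1 and in 0.0852% of all windows. B2m alone of the 8 held an exact match to the response element letters, which were found in 2.98% of windows. Looser forms of both sites were not searched, so the other windows are not shown to lack them. CCAAT was found in 6 of the 8 windows and in 33.8% of all windows, and TGACG in 5 of the 8 and in 17.8% of all. The windows of Tap1 and Psmb9 overlap, so the same CCAAT and the same TGACG count for both. TGACG, but not CCAAT, was also found in the windows of Psmb5 and Psmb6. Tap1 and Psmb9 start 225 bases apart and are read in opposite directions, so 1 stretch of letters lies before both. A match is a description of letters and not a measured binding site.

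The light and heavy chains of the class I molecule were the most abundant of the 10 genes. Per kilobase of transcript, the median level over 27 libraries was 788 CPM for B2m, 562 for H2-D1 and 297 for H2-K1, against 7.68 for Nlrc5. B2m encodes beta-2 microglobulin, the light chain without which a heavy chain does not reach the surface. Its level was 416 to 1375 CPM in Ptprc-high libraries (median 735), 1258 to 2106 in Ccl21a-high (median 1358), 475 to 849 in Msln-high (median 665) and 350 to 702 in the rest (median 496). The 7 Ccl21a-high libraries were all above every Msln-high library and every library of the rest, and they overlapped with Ptprc-high libraries. In bulk samples, fewer cells of a type and less RNA per cell cannot be told apart, here or below.

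Both classical heavy chains were high in Ptprc-high and Ccl21a-high libraries. H2-K1 encodes the K chain. It stood at 424 to 617 CPM in Ptprc-high libraries (median 530) and at 484 to 619 in Ccl21a-high (median 552). In Msln-high libraries it was 453, 401, 251 and 348 CPM, and in the rest it was 99.6 to 296 (median 170). The order of the first 2 medians turned with the scaling: the log2 ratio of Ptprc-high to Ccl21a-high was -0.06 by CPM, 0.11 after scaling by the trimmed mean of M-values (TMM) and 0.24 when the dominant genes (Gm26917 and the acinar, mitochondrial and immunoglobulin genes) were left out of the total.

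H2-D1, the D chain, ranged over 1159 to 1755 CPM in Ptprc-high libraries (median 1713) and over 1167 to 1439.8 in Ccl21a-high (median 1226). Msln-high libraries had 702 to 1182 CPM (median 1087) and the rest 360 to 934 (median 516). Neighbouring classes overlapped in B2m, H2-K1 and H2-D1, so the order of neighbours is not separated by their spread. The ratio of H2-K1 to H2-D1 per kilobase was 0.517 to 0.616 in Ccl21a-high libraries, above the 0.359 to 0.498 of the 20 other libraries. Within a library this ratio does not depend on the scaling.

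**Figure D1:**
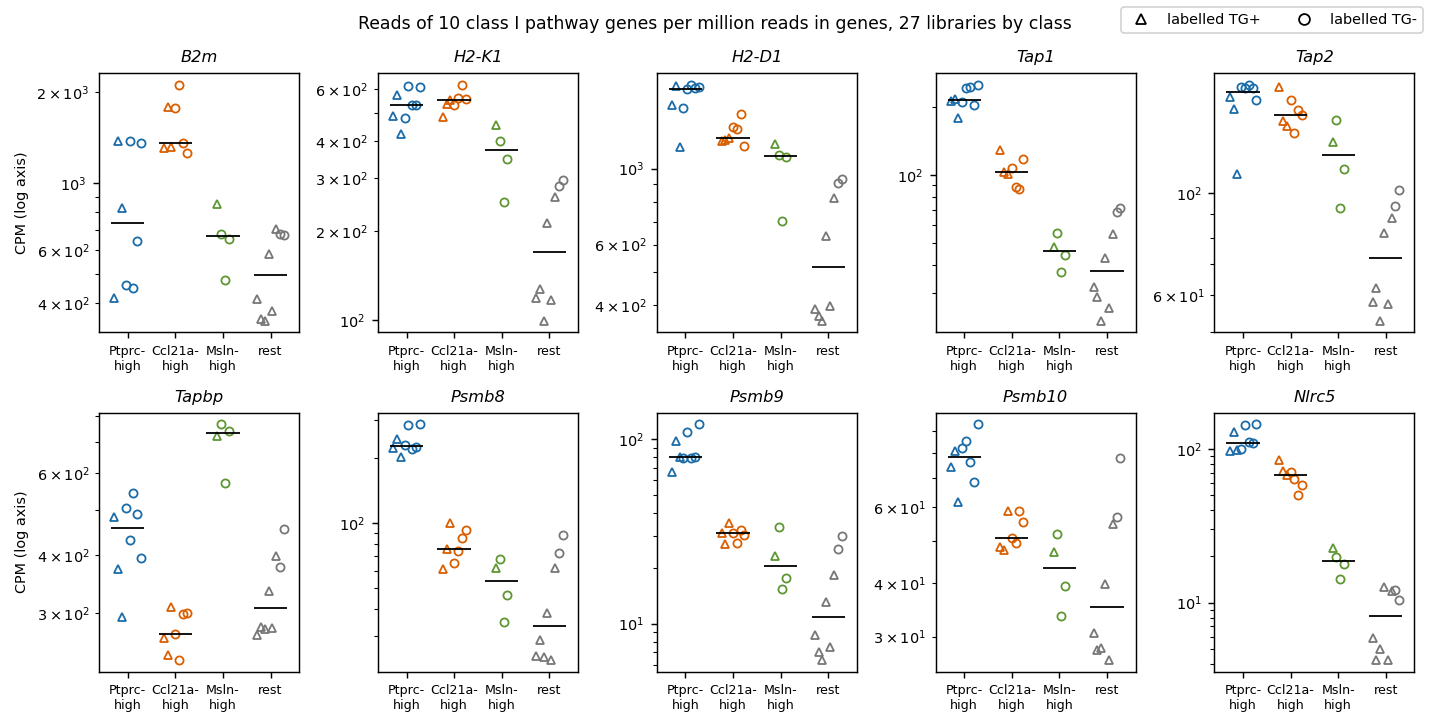
CPM of the 10 genes (log axis) in 27 libraries by class; each point is a library, triangles are labelled TG+ and circles TG-, and the bar is the class median. By CPM, Nlrc5 separates all 4 classes, Tapbp is highest in Msln-high libraries, and the median of B2m is highest in Ccl21a-high libraries.

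The transporter subunits differed from each other across classes. Tap1 had 180 to 251 CPM in Ptprc-high libraries (median 215), 86.9 to 129 in Ccl21a-high (median 103), 37.3 to 55.4 in Msln-high (median 46.0) and 22.6 to 71.2 in the rest (median 37.3). The first 3 classes did not overlap in Tap1. Tap2 varied less, with 110 to 171 CPM in Ptprc-high libraries (median 165), 134 to 170 in Ccl21a-high (median 147), 92.5 to 143 in Msln-high (median 121) and 52.9 to 101 in the rest (median 72.1). The ratio of the class medians, highest over lowest, was 5.76 for Tap1 and 2.29 for Tap2. Per kilobase, the reads of Tap1 were 1.41 to 1.91 times those of Tap2 in Ptprc-high libraries and 0.435 to 0.929 times in the 19 other libraries, with no overlap.

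Tapbp, the gene of tapasin, had an order of its own. It stood at 724, 766, 573 and 742 CPM in Msln-high libraries, above each of the other 23 libraries. Ptprc-high libraries had 294 to 543 CPM (median 458), Ccl21a-high 238 to 310 (median 270) and the rest 269 to 456 (median 308). The gap between Msln-high and Ptprc-high libraries closed, so that these classes overlapped, after TMM scaling and when dominant genes were left out of the total. After TMM scaling Msln-high libraries also overlapped with the rest. Against Ccl21a-high libraries the gap was there by CPM, with unstranded counts, after TMM scaling and without the dominant genes. Part of Tapbp overlaps Zbtb22 on the same strand in GENCODE M21, and reads in such a stretch are counted for neither gene.

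The 3 immunoproteasome genes were highest in Ptprc-high libraries. Psmb8, which encodes the inducible partner of PSMB5, had 202 to 286 CPM in Ptprc-high libraries (median 227), 61.4 to 100.2 in Ccl21a-high (median 75.9), 34.9 to 68.3 in Msln-high (median 54.1) and 23.2 to 87.6 in the rest (median 33.5). Psmb9, which takes the place of PSMB6, had 66.5 to 121, 27.2 to 35.1, 15.4 to 33.6 and 6.36 to 30.0 CPM in the same order of classes. Psmb10, which takes the place of PSMB7, had 61.7 to 93.3, 47.6 to 58.8, 33.5 to 51.9 and 26.5 to 78.1 CPM. The lowest Ptprc-high library was above the highest Ccl21a-high library in all 3 genes. The 3 remaining classes overlapped with their neighbours in order. In Psmb10, 1 library of the rest, labelled gp38-low TG- replicate 2, reached 78.1 CPM, which is within the Ptprc-high range.

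The constitutive partners varied less between classes. Psmb5 had class medians of 10.5 CPM in Ptprc-high libraries, 5.57 in Ccl21a-high, 5.73 in Msln-high and 7.37 in the rest. Psmb6 had 64.7, 41.2, 42.9 and 56.4 CPM in the same order, and Psmb7 51.3, 35.8, 40.8 and 44.6 CPM. None of the 3 separated Ptprc-high libraries from the rest. Psmb5 and Psmb7 were higher in Ptprc-high than in Ccl21a-high libraries without overlap, as were 19.97% of all genes. Psmb5 and Psmb6 were higher in Ptprc-high than in Msln-high libraries, as were 15.8% of all genes. The share of Psmb8, Psmb9 and Psmb10 in the reads of all 6 catalytic subunit genes, each divided by transcript length, does not depend on the scaling of the library. It was 66.0% (median, 63.6% to 69.2%) in Ptprc-high libraries, 55.2% (51.4% to 60.6%) in Ccl21a-high, 48.0% (34.0% to 53.2%) in Msln-high and 33.9% (26.2% to 47.1%) in the rest. Ptprc-high and Ccl21a-high libraries did not overlap in this share, while Ccl21a-high overlapped with Msln-high and Msln-high with the rest. Of the 3 pairs, Psmb8 over Psmb5 and Psmb9 over Psmb6 separated Ptprc-high from Ccl21a-high libraries. Psmb10 over Psmb7 did not, at 1.07 to 1.58 in Ptprc-high libraries and 1.05 to 1.61 in Ccl21a-high.

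**Figure D2:**
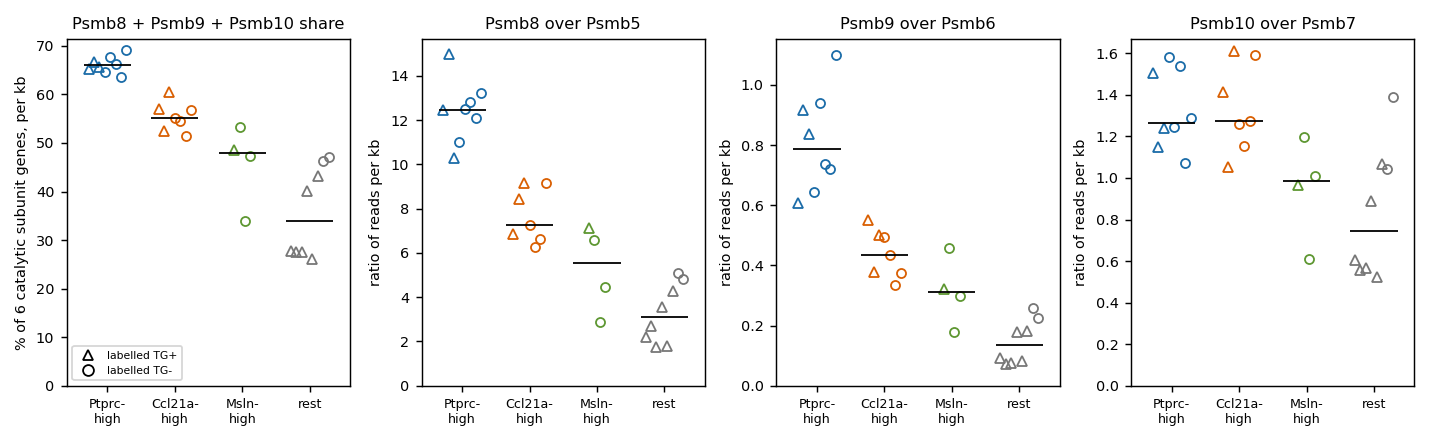
Left, share of Psmb8, Psmb9 and Psmb10 in the length-scaled reads of 6 catalytic subunit genes (percent); right, each inducible gene over its constitutive partner (ratio of reads per kilobase), by library class. Points are libraries (triangles TG+, circles TG-) and bars are class medians; the median share is 66.0% in Ptprc-high libraries and 33.9% in the rest.

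Nlrc5 was the only one of the 10 genes in which all 4 classes stood apart. It had 97.9 to 145 CPM in Ptprc-high libraries (median 110.0), 50.2 to 85.6 in Ccl21a-high (median 68.1), 14.2, 17.7, 19.7 and 22.8 in Msln-high, and 4.24 to 12.7 in the rest (median 8.19). Ptprc-high libraries thus had 13.4 times the median of the rest, the widest ratio of class medians among the 10 genes. After TMM scaling Msln-high and the rest overlapped in Nlrc5, while the gaps between Ptprc-high and Ccl21a-high and between Ccl21a-high and Msln-high did not close. Its locus overlaps the non-coding gene 9330175E14Rik on the opposite strand, which the strand-specific counts keep apart.

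**Figure D3:**
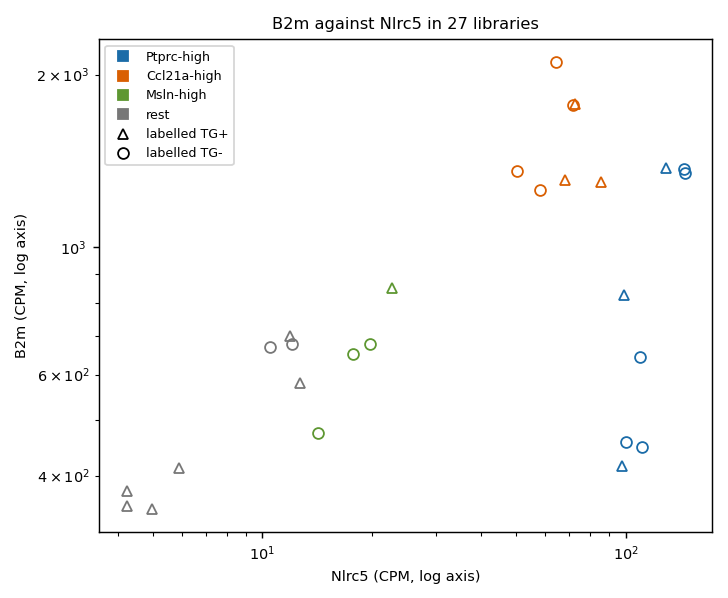
B2m against Nlrc5 in 27 libraries (CPM, both axes log; colours are library classes, triangles TG+ and circles TG-). Ptprc-high libraries lie at 97.9 to 145 CPM of Nlrc5 with B2m spread from 416 to 1375 CPM, while Ccl21a-high libraries have less Nlrc5 and 1258 to 2106 CPM of B2m.

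Counts of genes whose classes do not overlap are read beside the share of all 13747 genes with a mean log2 CPM of at least 0 that do the same. Of the 10 genes, 5 (Tap1, Psmb8, Psmb9, Psmb10 and Nlrc5) were higher in Ptprc-high than in Ccl21a-high libraries without overlap, against 19.97% of all genes, and 0 were lower (28.8%). The same 5 genes were higher in Ptprc-high than in Msln-high libraries (15.8%) and 1, Tapbp, was lower (45.8%). Against the rest, 7 were higher in Ptprc-high libraries (15.6%), which were H2-K1, H2-D1, Tap1, Tap2, Psmb8, Psmb9 and Nlrc5, and 0 were lower (29.4%). These shares of members were above the shares of all genes in the higher direction.

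Ccl21a-high libraries exceeded Msln-high libraries without overlap in 4 genes, B2m, H2-K1, Tap1 and Nlrc5 (9.79% of all genes), and were lower in Tapbp (31.3%). They exceeded the rest in 6, B2m, H2-K1, H2-D1, Tap1, Tap2 and Nlrc5 (9.40%), and were lower in 0 (16.1%). Msln-high libraries exceeded the rest in 2, Tapbp and Nlrc5 (19.8%), which is the share of the background, and were lower in 0 (8.63%). The median log2 ratio over the 10 genes was 0.66 for Ptprc-high over Ccl21a-high, 0.76 for Ptprc-high over Msln-high and 1.73 for Ptprc-high over the rest, where the medians over all genes were -0.22, -0.59 and -0.38. It was 0.53 for Ccl21a-high over Msln-high, 1.38 for Ccl21a-high over the rest and 0.84 for Msln-high over the rest, where all genes had -0.26, -0.15 and 0.13. With TMM scaling, 8 genes were higher in Ptprc-high than in Msln-high libraries, 8 in Ccl21a-high than in Msln-high, and 0 in Msln-high than in the rest. With the thresholds doubled, the library labelled LN FRC TG- replicate 4, with 169 CPM of Ptprc, falls into the rest, and 0 genes then separate Ptprc-high from the rest.

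Within the Ptprc-high class, B2m varied more than the other 9 genes. It was 416, 450, 459 and 644 CPM in the libraries labelled LN FRC TG+ replicate 2, LN FRC TG- replicate 4, CD45 TG- replicate 4 and gp38-high TG- replicate 2. It was 827 CPM in LN FRC TG+ replicate 4, and 1375, 1371 and 1349 CPM in LN FRC TG+ replicate 3, LN FRC TG- replicate 3 and gp38-low TG- replicate 1. In these same 8 libraries H2-K1 only ranged over 424 to 617 CPM. The 3 libraries with the most B2m also had the highest sums of 9 reticular genes, Ccl21a included, at 178, 125 and 112 CPM against 7.07 to 34.8 CPM in the other 5, and the highest sums of macrophage and dendritic cell genes, at 7613, 5036 and 5536 CPM against 1271 to 4203 CPM. Most of the reticular counts in these 3 libraries were of Cxcl13, at 1274, 1299 and 985 counts. Ccl21a had 19, 13 and 14 counts there and Ccl19 had 6, 0 and 8. Bst1, of the same list, had 151, 177 and 172 counts, against 17 to 78 in the other 5 libraries. This sum may not measure reticular cells, which was not tested. The part of any cell type in the B2m level was not tested. The length-scaled sum of H2-K1 and H2-D1 over B2m spread from 0.741 to 2.22 in Ptprc-high libraries and from 0.396 to 0.676 in Ccl21a-high libraries.

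Within the rest, 4 libraries were low in all 10 genes. These were the libraries labelled CD45 TG+ replicates 2 and 4, gp38-high TG+ replicate 1 and gp38-low TG+ replicate 2. They had 119, 127, 99.6 and 117 CPM of H2-K1, against 213 to 296 CPM in the other 4. Their Nlrc5 stood at 5.88, 4.24, 4.98 and 4.24 CPM, against 10.5 to 12.7 CPM. The same 4 libraries had 5832 to 11422 CPM of summed pancreatic acinar genes (7 genes), against 103 to 393 CPM in the other 4, and all 4 are labelled TG+. Other marker sums split the same way without overlap. Ductal genes (6 genes) summed to 1098 to 1547 CPM in these 4, against 168 to 602 CPM in the other 4. Beta cell genes (6 genes) summed to 137 to 149.8 CPM, against 8.59 to 57.0 CPM. Most beta cell counts in the 4 libraries were of Slc2a2, at 1575 to 1870 counts, against 40 to 1374 in the other 4. Ins2 alone of the 6 beta cell genes overlapped, at 9 to 244 counts against 3 to 13. Mesothelial genes summed to 157 to 186 CPM, against 98.3 to 141 CPM, and macrophage and dendritic cell genes to 26.1 to 37.6 CPM, against 10.04 to 20.8 CPM. Single genes made up most of these latter sums in the 4 libraries, Krt19 with 1663 to 2393 counts and Csf1r with 307 to 499. Wt1 had 468 to 922 counts, against 463 to 1856, and Lyz2 had 16 to 32, against 16 to 37. The mesothelial and macrophage sums may thus not measure such cells here, which was not tested. The part of any cell type in the low levels was not tested.

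**Figure D4:**
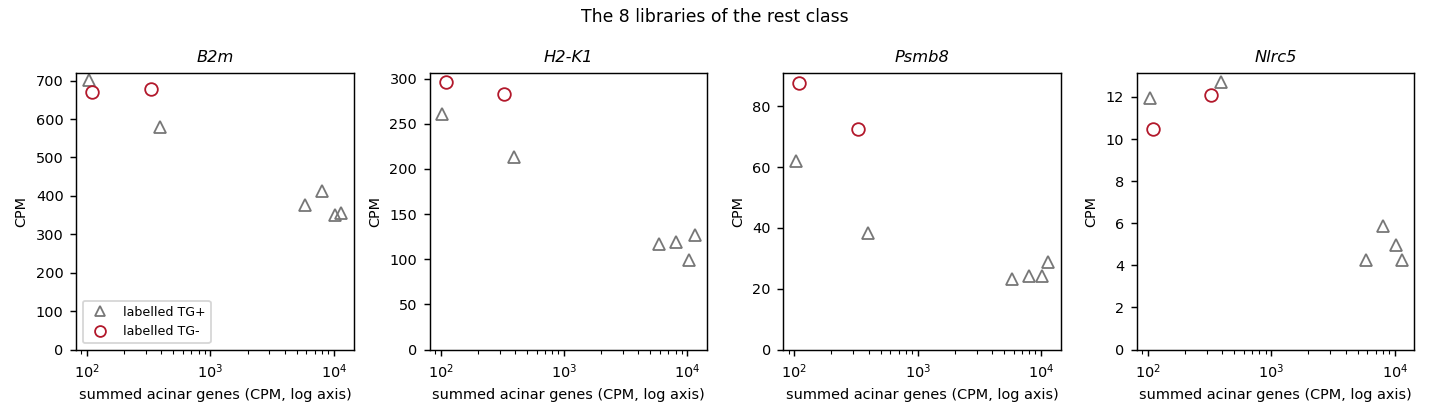
B2m, H2-K1, Psmb8 and Nlrc5 (CPM) against the summed CPM of 7 acinar genes (log axis) in the 8 libraries of the rest; triangles are labelled TG+ and circles TG-. The 4 libraries with 5832 to 11422 CPM of acinar genes are all TG+ and hold the lowest values of each gene.

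The 10 genes mostly followed each other from library to library. Over the 45 pairs, Pearson's r of log2 CPM across the 27 libraries ranged from -0.31 to 0.98 with a median of 0.83. After the class means were subtracted it ranged from -0.06 to 0.97 with a median of 0.82. B2m with Tapbp was the lowest pair in both. The highest were Psmb8 with Psmb9 over all libraries (0.98) and H2-K1 with H2-D1 after subtracting class means (0.97). Nlrc5 followed Tap1 (0.95), H2-D1 (0.92) and Tap2 (0.92) more closely than B2m (0.62) or Tapbp (0.05). The libraries share class, depth and the Gm26917 fraction, so these are descriptions with no test.

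Among 9102 genes with a mean log2 CPM of at least 3, those most like the mean of the 10 were mostly other class I heavy chain genes. Over the 27 libraries they were H2-K2 (r = 0.950), H2-T23 (0.949), H2-Q7 (0.945), H2-Q10 (0.945) and H2-Q6 (0.943). After class means were subtracted they were H2-Q6 (0.976), Gm10499 (0.964), Gm11127 (0.948), Zbp1 (0.938) and H2-Q10 (0.937). ZBP1 is a sensor of Z-form nucleic acids. Reads shared between near-identical heavy chain genes can raise these correlations for H2-K1 and H2-D1.

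Genes around the route showed a mixed pattern. Of 14 other class I heavy chain genes that reached the expression minimum, 11 were higher in Ptprc-high libraries than in the rest without overlap (15.6% of all genes) and 1, Mr1, was lower (29.4%). H2-T23, which presents signal peptides of other class I chains to inhibitory receptors, had medians of 110.5 CPM in Ptprc-high libraries, 53.7 in Ccl21a-high, 53.4 in Msln-high and 35.5 in the rest. H2-Q4 was highest in Ccl21a-high libraries (median 277 CPM), with 171 CPM in Ptprc-high, 198 in Msln-high and 91.2 in the rest. Mr1, which displays vitamin metabolites to MAIT cells, stood at 2.48 to 6.93 CPM in Ptprc-high libraries against 20.8 to 45.8 CPM in all others.

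Of 5 proteasome activator and assembly genes, Psme1, Psme2 and Psme3 were higher in Ptprc-high libraries than in each of the 3 other classes without overlap, as were 19.97% of all genes against Ccl21a-high, 15.8% against Msln-high and 15.6% against the rest. The activator gene Psme4 was lower in Ptprc-high than in Msln-high libraries (45.8% of all genes), and Pomp separated Ptprc-high libraries from no class. Psme1, a subunit of the PA28 cap that opens the core, had a median of 183 CPM in Ptprc-high libraries, 62.0 in Ccl21a-high, 104 in Msln-high and 70.5 in the rest. Psme2, its partner, had 107, 32.4, 59.5 and 42.8 CPM. Of the 11 other core subunit genes, 0 separated Ptprc-high libraries from the rest, where 15.6% of all genes were higher and 29.4% lower without overlap, and their median log2 ratio was 0.19. Against Ccl21a-high libraries 3 of the 11 were higher in Ptprc-high libraries without overlap (19.97% of all genes), and against Msln-high libraries 6 were (15.8%). In CPM, Ccl21a-high libraries were thus below Msln-high libraries in both PA28 genes while they were above them in Tap1 and Nlrc5.

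Of 8 peptide trimming and loading genes, 5 were higher in Msln-high than in Ccl21a-high libraries without overlap, as Tapbp was, where 31.3% of all genes were. They were Erap1, Canx, Pdia3, Tapbpl and Lap3. Erap1, the aminopeptidase that trims peptides in the endoplasmic reticulum, had 106 to 117 CPM in Msln-high libraries, 32.2 to 83.9 in Ptprc-high, 38.7 to 76.1 in Ccl21a-high and 29.4 to 60.4 in the rest. Pdia3, a disulfide isomerase of the loading complex, had medians of 714 CPM in Msln-high libraries, 214 in Ptprc-high, 410.0 in Ccl21a-high and 541 in the rest. Canx, the chaperone calnexin, had 545, 233, 354 and 468 CPM in the same order. Both medians were lowest in Ptprc-high libraries. Calr, the chaperone calreticulin, did not separate any of the classes, with medians of 801, 731, 949 and 979 CPM in Ptprc-high, Ccl21a-high, Msln-high and rest libraries.

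Genes of the interferon pathway differed in which class was highest. Ifngr1, a chain of the interferon gamma receptor, had its highest median in Ccl21a-high libraries, at 292 CPM against 133 in Ptprc-high, 94.8 in Msln-high and 126 in the rest. Irf1, a transcription factor induced by interferon gamma, had medians of 328, 284, 248 and 179 CPM in Ptprc-high, Ccl21a-high, Msln-high and rest libraries. Jak1, a kinase of interferon receptors, had 488, 392, 310 and 334 CPM. Both medians were highest in Ptprc-high libraries. Ifng itself ranged over 0.371 to 7.85 CPM in Ptprc-high libraries. Of the partners of NLRC5 on promoters, 1 of 8, Rfx5, was higher in Ptprc-high libraries than in the rest without overlap, at 29.92 to 49.17 CPM against 13.17 to 29.85 CPM, which is near the 15.6% of all genes.

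The labelled comparison of TG+ with TG- asks whether these genes differ with the labelled genotype in each labelled population. Since the labelled groups mix library classes, a difference between groups cannot be told apart from their class makeup. The marker genes used here do not show a library's genotype, and whether labels, genotype included, were exchanged between libraries was not tested. In the libraries labelled CD45, B2m had 849, 412, 1299.9 and 354 CPM in TG+, against 1769.9, 2105.5, 1358 and 459 CPM in TG-. Psmb8 had 61.8, 24.2, 61.4 and 28.8 CPM in TG+, against 65.0, 74.1, 85.2 and 230.0 CPM in TG-. Nlrc5 had 22.8, 5.88, 85.6 and 4.24 CPM in TG+, against 71.6, 64.2, 50.2 and 100.1 CPM in TG-. Only Psmb8 of these 3 had groups that did not overlap. The TG+ libraries were 1 Msln-high, 1 Ccl21a-high and 2 of the rest, and the TG- libraries 3 Ccl21a-high and 1 Ptprc-high.

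None of the 10 genes passed the test in CD45 libraries, as 0 of 14871 genes (0%) were called by edgeR at an adjusted p under 0.05. The unadjusted p was under 0.05 for 1402 genes and for 3 of the 10. All 10 had a negative log2 difference, with a median of -1.11. It was -1.11 for B2m (SE 0.61, adjusted p = 0.58), -1.33 for Tap1 (SE 0.64, adjusted p = 0.55), -1.71 for Psmb8 (SE 0.62, adjusted p = 0.51) and -1.49 for Nlrc5 (SE 0.95, adjusted p = 0.62), all by edgeR. DESeq2 called 427 genes and 0 of the 10. Limma-voom with library quality weights called 6184 genes, which is 41.6% of those tested, and 9 of the 10, each with lower values in TG+. In H2-D1, Psmb8 and Psmb10 every TG+ library was below every TG- library, as in 1.39% of 13747 genes, and in 0 the reverse held (5.27%). Without CD45 TG+ replicate 3, edgeR called 519 genes and 0 of the 10.

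In the libraries labelled gp38-low, Psmb8 had 75.9, 23.2, 100.2 and 61.9 CPM in TG+, against 286, 87.6, 92.3 and 46.5 CPM in TG-. Nlrc5 had 72.6, 4.24, 68.1 and 11.9 CPM in TG+, against 145, 10.5, 58.2 and 17.7 CPM in TG-. The groups overlapped in both genes and in each of the 10, so 0 were lower in TG+ without overlap (0.429% of all genes) and 0 higher (0.684%). By edgeR 0 of 14095 genes (0%) were called, and 273 had an unadjusted p under 0.05, with 0 of the 10 among them. DESeq2 called 1 gene and limma-voom 0. The log2 difference was -0.0018 for B2m (SE 0.63), -0.85 for Tap1 (SE 0.69), -1.04 for Psmb8 (SE 0.70) and -0.62 for Nlrc5 (SE 1.10), each with an adjusted p of 0.999 by edgeR. The sign for B2m turned without 4 single libraries, and that of Nlrc5 turned to 0.33 without gp38-low TG- replicate 1, the Ptprc-high library of its group.

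In the libraries labelled gp38-high, Psmb8 had 24.1 and 38.2 CPM in TG+, against 34.9 and 224 CPM in TG-. Nlrc5 had 4.98 and 12.7 CPM in TG+, against 14.2 and 109 CPM in TG-. Both TG+ libraries belong to the rest, and the TG- libraries are 1 Msln-high and 1 Ptprc-high, so no class holds both genotypes. By edgeR 0 of 17937 genes (0%) were called. The unadjusted p was under 0.05 for 920 genes and for 0 of the 10. DESeq2 called 40 genes, none of the 10, and limma-voom 0. The log2 difference was -0.33 for B2m (SE 0.83, adjusted p = 0.92), -2.09 for Tap1 (SE 1.13, adjusted p = 0.66), -2.26 for Psmb8 (SE 1.16, adjusted p = 0.66) and -3.02 for Nlrc5 (SE 1.72, adjusted p = 0.66). Of the 10, 6 were lower in TG+ without overlap, where 27.9% of all genes were, and 0 were higher, where 16.8% were. Without gp38-high TG- replicate 2, the Ptprc-high library, the differences of B2m, Tap1 and Psmb8 were 0.26, 0.10 and 0.13. The lone TG- library of that fit was assumed to vary like the gp38-low libraries fitted with it.

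In the libraries labelled lymph node FRC, 9 of the 10 genes had a positive log2 difference, with a median of 0.28. Psmb8 had 223, 245 and 202 CPM in TG+, against 72.4, 68.3, 283 and 219 CPM in TG-. Nlrc5 had 97.9, 129 and 99.0 CPM in TG+, against 12.1, 19.7, 145 and 111 CPM in TG-. The 3 TG+ libraries were all Ptprc-high and overlapped with the 2 Ptprc-high TG- libraries in both genes. The other 2 TG- libraries, 1 of the rest and 1 Msln-high, were lower. Among the 10 genes, 0 were higher in TG+ without overlap (0.364% of all genes) and 0 lower (4.33%). By edgeR 0 of 13819 genes (0%) were called. The unadjusted p was under 0.05 for 981 genes and for 0 of the 10. DESeq2 called 549 genes, none of the 10, and limma-voom 0. The log2 difference was 0.29 for B2m (SE 0.55, adjusted p = 0.89), 0.53 for Tap1 (SE 0.66, adjusted p = 0.89), 0.61 for Psmb8 (SE 0.62, adjusted p = 0.89) and 0.72 for Nlrc5 (SE 0.88, adjusted p = 0.89). Without LN FRC TG+ replicate 3 that of B2m was -0.000486.

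The populations were compared in 1 fit of 19 libraries, so the 3 comparisons share libraries. Gp38-high over gp38-low gave a median of -0.68 over the 10 genes, with 0 of 18396 genes (0%) called by edgeR and 509 (2.77%) with an unadjusted p under 0.05, where DESeq2 called 147 and limma-voom 0. Of the 10, 1 had such an unadjusted p. Gp38-low over lymph node FRC gave -0.49 with 0 called (0%), and 6639 genes (36.1%) and 2 of the 10 had an unadjusted p under 0.05. DESeq2 called 4777 genes and none of the 10 there, and limma-voom 8651 genes (47.03%) with Tap1, Psmb8 and Psmb9 lower in gp38-low. Without gp38-low TG- replicate 1, edgeR called 5403 genes (29.3%), with Psmb8 and Psmb9 lower in gp38-low, and without LN FRC TG- replicate 1 it called 1369 and 0 of the 10. Gp38-high over lymph node FRC gave -1.20 with 0 called (0%), and 3014 genes (16.4%) and 7 of the 10 had an unadjusted p under 0.05. DESeq2 called 738 genes there (4.01%) with Psmb9 lower in gp38-high, and limma-voom 0. The log2 difference of Nlrc5 was -1.15 (SE 0.97), -1.04 (SE 0.79) and -2.19 (SE 1.05) in these 3 comparisons, and that of B2m -1.19 (SE 0.50), 0.21 (SE 0.41) and -0.98 (SE 0.51). The libraries labelled lymph node FRC were 5 Ptprc-high of 7, against 2 of the 12 labelled gp38-high or gp38-low.

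With all 27 libraries and the labelled population as a term, TG+ over TG- gave negative log2 differences for all 10 genes, with a median of -0.59. By edgeR 0 of 17913 genes (0%) were called, while 1192, with 4 of the 10 among them, had an unadjusted p under 0.05. DESeq2 called 605 genes and limma-voom 0, and neither called any of the 10. With the library class as the term instead, edgeR called 0 of 18393 genes (0%), with 1779 at an unadjusted p under 0.05. The differences were then -0.17 for B2m (SE 0.20, adjusted p = 0.76), -0.35 for Tap1 (SE 0.17, adjusted p = 0.50), -0.42 for Psmb8 (SE 0.21, adjusted p = 0.50) and -0.12 for Nlrc5 (SE 0.18, adjusted p = 0.81).

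Within the Ptprc-high class, where 3 TG+ libraries met 5 TG- libraries, none of the 10 genes passed the test. The log2 differences ranged from -0.18 to 0.17 over the 10 genes, with 0 of 13612 genes (0%) called by edgeR and 137 with an unadjusted p under 0.05. For Psmb8 the difference was -0.01 (SE 0.15) and for Nlrc5 -0.03 (SE 0.16). Without the libraries of the rest, and with class as a term, 5 of the 10 were positive and the median was -0.0046, with 0 of 17785 genes (0%) called and 313 with an unadjusted p under 0.05. That selection of libraries was made after the data were seen.

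Genotype was tested within the Ptprc-high class and within the rest, and members passed only in the rest. The Ccl21a-high class (3 TG+, 4 TG-) and the Msln-high class (1 TG+, 3 TG-) were not fitted alone. Psmb8 had 24.2, 28.8, 24.1, 38.2, 23.2 and 61.9 CPM in the 6 TG+ libraries, against 72.4 and 87.6 CPM in the 2 TG- libraries. Psmb9 had 6.36 to 18.4 CPM in TG+ (median 8.09), against 25.6 and 30.0 CPM in TG-. By edgeR 5472 of 15535 genes were called (35.2%), and 17.6% of those tested were called lower in TG+. Of the 10 genes, 8 fell in TG+, and B2m (adjusted p = 0.054) and Nlrc5 (adjusted p = 0.16) did not pass. DESeq2 called 6311 genes (40.6%) and 9 of the 10, and limma-voom 4907 genes (31.6%) and all 10. The log2 difference was -0.83 for B2m (SE 0.30), -1.31 for Tap1 (SE 0.33, adjusted p = 0.021), -1.54 for Psmb8 (SE 0.39, adjusted p = 0.022) and -0.90 for Nlrc5 (SE 0.48).

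This result rested on 2 TG- libraries. Without gp38-low TG- replicate 2, which leaves 6 TG+ libraries and 1 TG-, edgeR called 0 genes, with 3493 at an unadjusted p under 0.05, and 0 of the 10. The differences were then -1.19 for Tap1 (SE 0.43) and -1.31 for Psmb8 (SE 0.51). Without LN FRC TG- replicate 1, the other TG- library, edgeR called 4532 genes (27.4%) and 6 of the 10, with -1.42 for Tap1 (SE 0.43) and -1.75 for Psmb8 (SE 0.49). In both fits the lone TG- library was assumed to vary like the TG+ libraries. Without the 4 libraries above 1000 CPM of acinar genes, 2 TG+ and 2 TG- libraries remained. By edgeR 460 of 13933 genes (3.30%) were then called and 1 of the 10, Psmb9, at -1.02 (SE 0.29, adjusted p = 0.030), while Psmb8 stood at -0.87 (SE 0.29, adjusted p = 0.065) and Nlrc5 at -0.08 (SE 0.31, adjusted p = 0.91). In the fit of all 8 libraries, 17.6% of all genes fell and 17.6% rose, and the counts that follow are read against these shares. The constitutive genes Psmb5, Psmb6 and Psmb7 fell too, at -0.71, -0.68 and -0.46, as did 8 of the 11 other core subunit genes, so the change was not confined to the inducible subunits. Of 13 other class I heavy chain genes tested, 6 fell and 0 rose. Of 13 genes of interferon receptors and signalling, 6 fell, among them Irf1 at -0.60, and 1, Jak2, rose at 0.72. Of 8 promoter partners of NLRC5, Creb1 rose at 1.02 and Atf1 at 0.83, and 0 fell. The 6 TG+ libraries carry the labels CD45, gp38-high and gp38-low, and the 2 TG- libraries gp38-low and lymph node FRC, so genotype and labelled population are mixed here. Only gp38-low holds both genotypes within the rest, with Psmb8 at 23.2 and 61.9 CPM in TG+ and at 87.6 CPM in TG-.

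**Figure D5:**
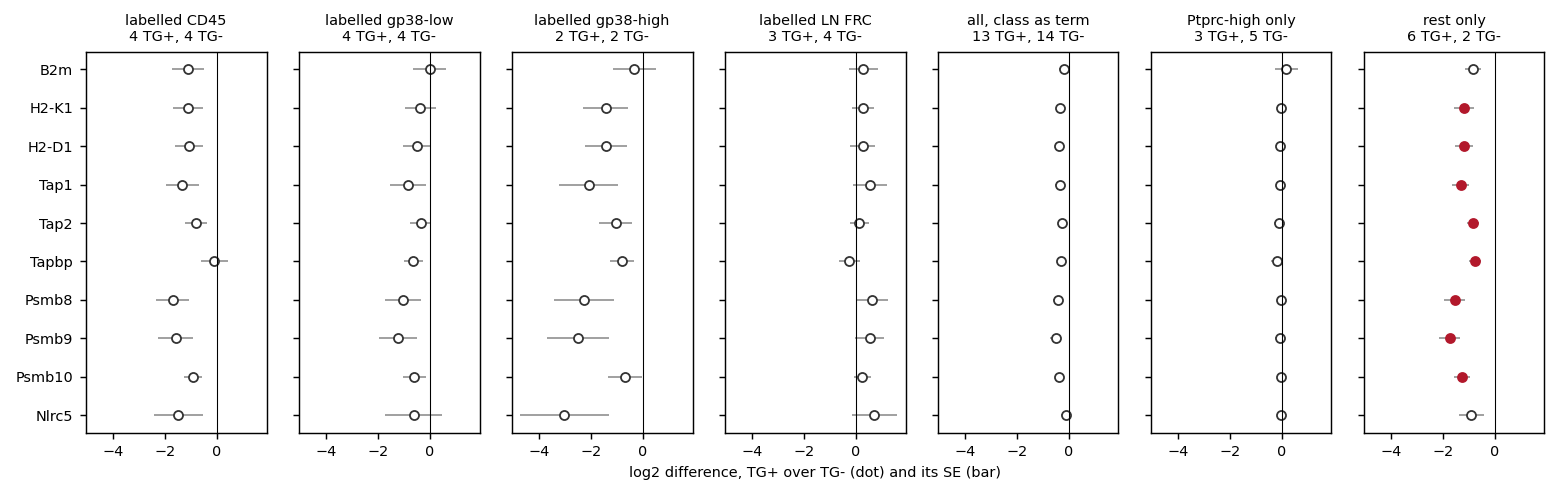
Log2 difference of TG+ over TG- for the 10 genes (dot) with its SE (bar), by edgeR, in 4 labelled populations and in 3 fits by library class; filled red dots have an adjusted p under 0.05. Red dots appear only among the 8 libraries of the rest, and within Ptprc-high libraries the differences range from -0.18 to 0.17.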

How the data were processed

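Total RNA of sorted cells went into KAPA RNA HyperPrep libraries with RiboErase, which removes ribosomal RNA, per the labels' protocols. The submitters' processing notes name bcl2fastq 2.17, Trim Galore 0.4.3, STAR 2.5.2a and the mm10 genome. They name no annotation release, which is thus not given in sources used here. Each deposited table holds raw read counts per gene, as the authors' STAR run wrote them, with 32113714 to 59605092 reads in all. The 4 lines that name no gene took 51.7% to 79.7% of a table and were left out. Reverse-strand counts were used: forward-strand counts made up 6.67% to 15.3% of both columns together. Of 54446 identifiers, 54409 matched GENCODE M21 (GRCm38).

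CPM are counts divided by the reads in genes, times 1000000. The detection limit, 3 counts, equals 0.119 to 0.352 CPM and covers counting error only. Levels per kilobase use the length of the principal transcript. Classes come from measured markers, so levels by class are described without a test. Labelled groups were compared with edgeR 4.0.16 (R 4.3.3; TMM, filterByExpr, robust quasi-likelihood F test, Benjamini-Hochberg adjustment over all genes tested at 0.05), and the SE of a log2 difference is its size over the square root of F. Genotype in gp38-high was estimated in a fit of all 12 gp38 libraries. DESeq2 1.42.0, limma-voom 3.58.1, other scalings, filters and count columns, and single libraries left out were alternatives. Scripts were tested on simulated data. Log2 differences are named for B2m, Tap1, Psmb8 and Nlrc5, 1 per role, and of other pathway lists the 3 genes with the highest mean and any called; pathway genes outside this rule, such as Mr1, Erap1 and Tapbpl, and Psmb9 among the differences, were named for their values. The genes, lists and alternatives were chosen with earlier results of these data known.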

Additional observations from a re-analysis of the deposited data

Results flagged for a closer look

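In groups of at least 4 libraries, each of the 10 genes was searched for a library whose gap to the next was larger than Dixon's 95% critical value. Chance flags about 1 in 20 groups, and 2 of 50 were found. Psmb9 in CD45 TG- replicate 4 was 79.6 CPM, against 27.3 to 32.1 CPM in the other 3 libraries labelled CD45 TG-, and that library is the only Ptprc-high one of the 4. Tapbp in CD45 TG+ replicate 1 was 724 CPM, against 265 to 281 CPM in the other 3 libraries labelled CD45 TG+, and that library is the only Msln-high one of the 4.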

How the results depend on the processing

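No labelled comparison called any of the 10 genes with relative log expression factors, without a low-count filter, with unstranded counts, with dominant genes left out, or with the replicate number as a block. For same-numbered TG+ and TG- libraries, r of their deviations ranged from -0.15 to 0.62 and was not above 0.1 in every pair. In each population of 3 or more pairs some library correlated better with another number. The labelled groups mix library classes, so r can follow class. In gp38-low, TG+ replicate 3 with TG- replicate 3, both Ccl21a-high, gave 0.62. There, TG+ replicate 4 with TG- replicate 2, both of the rest, gave 0.63, and TG+ replicate 2 with TG- replicate 2, also both of the rest, gave 0.19. In gp38-high the small groups let r differ only in sign. These values therefore cannot decide whether same-numbered libraries are paired. With the replicate block edgeR called 0 genes in each of the 8 comparisons, with 885, 77, 393, 281, 129, 3904, 298 and 559 at an unadjusted p under 0.05.

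DESeq2 called 427 genes for CD45 TG+ over TG-, 1 for gp38-low, 40 for gp38-high, 549 for lymph node FRC, 147 for gp38-high over gp38-low, 4777 for gp38-low over FRC, 738 for gp38-high over FRC (1 of the 10) and 605 over all libraries. Limma-voom called 6184 (9 of the 10) for CD45 and 8651 (3 of the 10) for gp38-low over FRC. Within the rest 5472 genes and 8 of the 10 were called, or 460 and 1 without the libraries above 1000 CPM of acinar genes. With single libraries left out, calls ranged over 0 to 519 for CD45, 0 to 5403 (0 to 2 of the 10) for gp38-low over FRC and 0 to 7856 (0 to 10 of the 10) in the rest.

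Signs turned for gp38-low B2m (0.016 without the filter, 0.022 with all 27 libraries in 1 fit, -0.34 to 0.29 with single libraries left out) and Nlrc5 (-1.10 to 0.33). They turned for gp38-high B2m (-0.71 to 0.26), Tap1 (-2.85 to 0.10) and Psmb8 (-3.04 to 0.13), and for FRC B2m (-0.000486 to 0.67). Over all libraries B2m was 0.17 in Ptprc-high libraries alone, and B2m, Tap1, Psmb8 and Nlrc5 were 0.10, 0.028, 0.028 and 0.16 with class as a term and without the rest. The cause was not tested.

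Of the 10, those higher in Ptprc-high than in Msln-high libraries without overlap were 8 with TMM scaling and 8 with dominant genes left out, those lower 0 and 0, and with single libraries left out 5 to 8 were higher. Ccl21a-high over Msln-high gave 8 with TMM scaling and 4 to 7 with single libraries left out, and Msln-high over the rest 0 with TMM scaling, 1 with doubled thresholds and 2 to 5. With doubled thresholds Ptprc-high over the rest gave 0 and Ccl21a-high over the rest 1. Median immunoproteasome shares were 75.7%, 65.4%, 58.6% and 44.0% without division by length, and 69.2% and 61.7% in Ptprc-high and Ccl21a-high libraries with merged exon lengths.

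Depth was not limiting for these genes, whose lowest level, 4.24 CPM of Nlrc5, is above the 0.352 CPM that 3 counts give. Class makeup limits the comparisons of genotypes, and so do the labels, whose exchange between libraries, genotype included, was not tested.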
